A study of Mus musculus with 41 samples.

Results

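The comparison was between splenic B cells sorted as immature from wild-type mice (label wt) and from mice labelled 1Mek2, across all genes. Members were the libraries of the Immature sort whose names carry WT (3 libraries) or 1Mek2 (3 libraries), which made 6 of the 41 libraries of the series. The sort gate was B220+CD93+CD138-, and every mouse was 3 to 5 months old. The 1Mek2 label stands for Mek1flox/flox Mek2+/- Tg+/Vav1-icre. The allele Mek1flox can be cut by Cre recombinase, 1 copy of Mek2 is disrupted, and the Vav1-icre transgene drives Cre in blood cells in general, so that a loss of MEK1 would not be limited to B cells. The wt mice carry the genotype label wt, and the labels give no further allele for them. A seventh Immature library (animal 565) was left out because its title reads 1Mek2, its library name reads Mek1ff, and the germinal center library of the same animal is labelled wt. Each library came from a different animal. Animals 358, 413 and 487 are wt replicates 1, 2 and 3, and animals 323, 570 and 636 are 1Mek2 replicates 2, 3 and 4. RNA was selected by its poly(A) tail and sequenced.

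As background, MEK1 and MEK2 (genes Map2k1 and Map2k2) are the paired kinases that pass a signal from RAS and RAF to ERK. In B cells this cascade runs below the B cell receptor, and it is known for its part in activation, cell division and the step towards plasma cells. Immature B cells that reach the spleen carry CD93 and IgM, divide little and still have their original heavy chain class. Germinal center B cells, by contrast, divide fast, mutate their receptor and switch class from IgM and IgD to IgG, IgE or IgA. Plasma cells secrete that antibody through an enlarged endoplasmic reticulum (ER).

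Libraries held 17036755 to 21649214 counted reads over genes. The deposited counts cover whole gene spans, introns included, and a second measure used reads in exons only, recovered from the deposited TPM table (14339272 to 20111643 reads per library). The share of exon reads in gene counts was 69.3 to 84.6% in wt and 84.2 to 93.1% in 1Mek2 libraries. Long neuronal genes, whose reads here fall mostly outside exons, summed to 1084, 2457 and 1457 CPM (counts scaled to a library of 1000000) in wt and 1521, 480 and 1051 CPM in 1Mek2. Of the 171 genes called higher in 1Mek2 below, wt replicate 1 was the highest wt library in 123 and 1Mek2 replicate 2 the lowest 1Mek2 library in 139. The part of these differences between libraries in the results was not tested.

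Neither targeted gene separated the groups, and only Map2k1 had a fold change in the direction of the label. Map2k1 (chromosome 9, 64093066 to 64160887) was at 224, 222 and 196 CPM in wt and at 206, 147 and 158 CPM in 1Mek2. Its log2 fold change was -0.33 ± 0.37 (SE, adjusted p = 0.775, edgeR). In exon reads Map2k1 was at 190, 197 and 163 CPM in wt and at 174, 79.6 and 121 CPM in 1Mek2. There its log2 fold change was -0.56 ± 0.27 (adjusted p = 0.443, edgeR). Map2k2 (chromosome 10, 80941749 to 80960531) was at 88.4, 53.7 and 49.5 CPM in wt and at 79.6, 116 and 90.7 CPM in 1Mek2. The log2 fold change of Map2k2 was 0.58 ± 0.40 (adjusted p = 0.709) and 0.28 ± 0.27 in exon reads (adjusted p = 0.733). Map2k2 was thus not lower in the libraries labelled as missing 1 copy of it, and which part of either gene is deleted is not given in the sources used here. The group is called 1Mek2 throughout by its label.

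Cd93, the gate marker, was read first. Because the cells were sorted on CD93, its level is no independent check of their identity. In libraries scaled over all subsets, Cd93 was at 28.2 to 48.0 CPM in Immature wt and 16.4 to 44.6 CPM in Immature 1Mek2, against 1.49 to 6.09 CPM in wt follicular B cells. Between the Immature groups Cd93 overlapped (log2 fold change 0.06 ± 0.46, adjusted p = 0.962), as did Vpreb3, a partner of the heavy chain in young B cells (322 to 515 against 254 to 567 CPM). Of 17 tested genes of receptor recombination and precursor stages, 0 passed with edgeR in gene counts (4 at an unadjusted p under 0.05; 0 with DESeq2 or limma voom). Genes that define B cells (Cd79a, Ms4a1 and others) summed to 18728 to 26356 CPM in wt and 21427 to 28866 CPM in 1Mek2.

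Libraries of the Immature sort with the 1Mek2 label had more messenger RNA of called division genes, such as Cdk1 and Cenpf. They also had more of called plasma cell and secretory genes, such as Xbp1 and Creld2, and less of Ccr7, Il10ra, Mx2 and Oasl1. The share of switched antibody classes was higher in each 1Mek2 library than in any wt library, and no single heavy chain constant gene passed. The 1Mek2 libraries, with 47.3 to 62.8% switched heavy chain reads, differ from the background given above for immature B cells. Immature is thus used as the name of the sort. Whether other cells in the sort account for this was not tested. Of 21115 genes tested, 197 passed an adjusted p of 0.05 (edgeR quasi-likelihood test with Benjamini-Hochberg adjustment), which is 0.933% of them. They split into 171 genes higher in 1Mek2 (0.810%) and 26 lower (0.123%). Before adjustment 1840 of the 21115 genes had a p under 0.05 by the same test. The 3 libraries of each group did not overlap for 1460 genes that were higher (6.91%) and 1317 that were lower (6.24%). Over all genes the median log2 fold change was -0.17, and 42.9% of them were positive. In exon reads 36 of 14631 genes were higher (0.246%) and 14 lower (0.0957%), with groups apart for 11.0% and 9.65% of genes. Of the 197 genes, 185 could be tested in exon reads, where 185 kept their direction and 28 passed. The number of calls rested on single libraries: without 1Mek2 replicate 3 it was 32, of which 27 were among the 197, without 1Mek2 replicate 2 it was 738 and without wt replicate 1 it was 549. It was 5 with the left-out library added as 1Mek2, and 0 in 1 edgeR fit over the 12 groups of the series (696 at an unadjusted p under 0.05). It was also 0 in an edgeR fit with the sum of long neuronal genes as a term (1501 at an unadjusted p under 0.05), while DESeq2 called 287 genes and limma voom 268 over the same 6 libraries. In every one of these fits the 197 genes kept their sign. The genes were chosen by their values in these same libraries, so a kept sign here and in exon reads is no independent support.

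**Figure D1:**
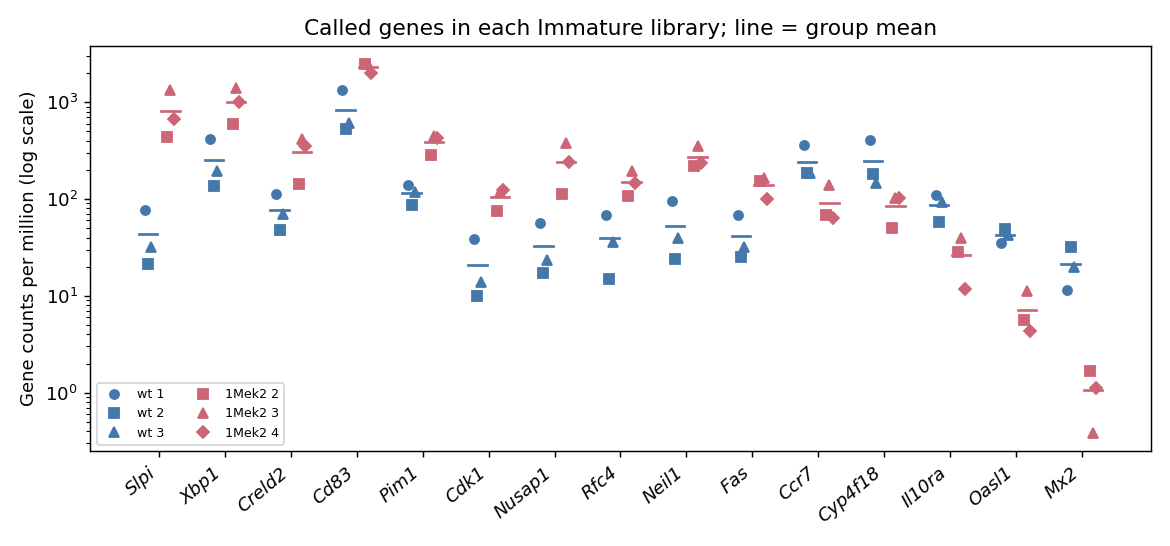
Gene CPM (log axis) of 15 called genes in each Immature library, with wt in blue, 1Mek2 in red and a line at the group mean. For these genes the groups do not overlap; Slpi runs from 21.3 to 77.1 CPM in wt and from 435 to 1341 CPM in 1Mek2.

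Promoter sequences of the cell cycle genes are shown first, since members of each list often share letters there. Windows are RefSeq promoters of build GRCm38.p6, from 250 bases before to 50 after the gene start, and 144 of the 197 called genes had one. Late cell cycle genes often carry the cell cycle homology region (CHR, the letters TTTGAA or TTCGAA on either strand), through which the DREAM and MuvB complexes act. The CHR letters stood in 19.4% of 27025 promoters, in 32 of 38 promoters of the mitosis list (84.2%) and in 14 of 27 of the kinetochore list (51.9%). The 200 bases from 150 before to 50 after the start follow for the 3 called genes of those lists with the highest mean CPM among those that hold the letters there, with CHR in capitals. Cdca8 lies at chr4:124936868-124937067 (minus strand), Knl1 at chr2:119046969-119047168 (plus strand) and Cdc20 at chr4:118437294-118437493 (minus strand).
Cdca8: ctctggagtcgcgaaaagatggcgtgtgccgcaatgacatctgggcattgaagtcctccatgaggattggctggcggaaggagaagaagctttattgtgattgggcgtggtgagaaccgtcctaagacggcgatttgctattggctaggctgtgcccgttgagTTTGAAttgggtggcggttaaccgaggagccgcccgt
Knl1: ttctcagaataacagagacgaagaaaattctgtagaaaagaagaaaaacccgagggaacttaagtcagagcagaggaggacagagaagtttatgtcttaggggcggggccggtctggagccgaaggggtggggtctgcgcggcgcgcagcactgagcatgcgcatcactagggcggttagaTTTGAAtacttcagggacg
Cdc20: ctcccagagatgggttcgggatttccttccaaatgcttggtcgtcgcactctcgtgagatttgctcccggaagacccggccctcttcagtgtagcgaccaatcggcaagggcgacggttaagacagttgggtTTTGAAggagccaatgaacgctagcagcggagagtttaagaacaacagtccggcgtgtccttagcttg
Genes of the start of replication more often carry an E2F site, for which TTTCCCGC and TTTGGCGC were searched on both strands. These stood in 1.63% of all promoters and in 11 of 30 promoters of the replication list (36.7%). The 3 called replication genes of highest mean CPM that hold one are shown with the E2F letters in capitals. Mcm6 lies at chr1:128359656-128359855 (minus strand), Mcm3 at chr1:20820263-20820462 (minus strand) and Mcm5 at chr8:75109359-75109558 (plus strand).
Mcm6: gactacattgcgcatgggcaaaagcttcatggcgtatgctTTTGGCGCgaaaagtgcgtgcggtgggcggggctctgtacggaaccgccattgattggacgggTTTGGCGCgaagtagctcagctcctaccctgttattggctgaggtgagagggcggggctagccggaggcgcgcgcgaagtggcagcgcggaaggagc
Mcm3: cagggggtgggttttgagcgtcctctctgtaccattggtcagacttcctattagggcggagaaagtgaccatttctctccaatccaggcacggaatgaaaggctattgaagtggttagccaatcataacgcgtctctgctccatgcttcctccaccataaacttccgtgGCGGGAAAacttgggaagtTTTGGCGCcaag
Mcm5: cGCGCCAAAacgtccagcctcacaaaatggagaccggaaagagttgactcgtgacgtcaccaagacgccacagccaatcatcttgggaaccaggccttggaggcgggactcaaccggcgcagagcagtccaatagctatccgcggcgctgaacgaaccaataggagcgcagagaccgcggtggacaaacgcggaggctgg
A match of letters is a description of the window and not evidence that a factor was bound in these cells.

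Genes of mitosis had positive fold changes throughout the list. Of 45 tested mitosis and spindle genes, 9 rose, 0 fell and 45 had a positive fold change, with a median of 1.99 on the log2 scale beside -0.17 over all genes. Cdk1, the kinase that starts mitosis (chromosome 10, 69170976 to 69188742), was at 38.7, 9.87 and 13.8 CPM in wt and at 75.5, 119 and 123 CPM in 1Mek2. The lowest 1Mek2 library was thus above the highest wt library, and the log2 fold change was 2.35 ± 0.45 (adjusted p = 0.00135). Nusap1, which bundles spindle microtubules, rose from 32.4 ± 21.1 to 243 ± 131 CPM (SD, n = 3 and 3; log2 fold change 2.91 ± 0.45, adjusted p = 0.000206). Hmmr, a spindle assembly factor, rose from 20.96 ± 14.99 to 108 ± 36.1 CPM. Cdc25c, the phosphatase that activates Cdk1, rose from 5.15 ± 3.61 to 46.1 ± 13.2 CPM and also passed in exon reads. Tubb5, a tubulin, and Kpna2, a nuclear import adaptor, rose 2.94-fold and 3.75-fold.

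Kinetochore and chromosome structure genes had positive medians as well. Of 31 tested kinetochore and centromere genes, 5 rose, 31 were positive and the median was 1.47. Cenpf, a protein of the outer kinetochore, was at 41.8, 14.6 and 14.2 CPM in wt and 86.9, 160 and 177 CPM in 1Mek2 (log2 fold change 2.58 ± 0.44, adjusted p = 0.000184). Ska3, which holds microtubules at the kinetochore and overlaps Mrpl57, rose from 9.54 ± 8.75 to 54.9 ± 26.3 CPM. Of 17 condensin and cohesin genes 4 rose, led by Ncaph, a condensin subunit, from 19.6 ± 8.08 to 160 ± 82.7 CPM. Both Cenpf and Ncaph were lowest in 1Mek2 replicate 2, which still lay above every wt library.

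DNA replication genes had a median below that of mitosis genes. Of 38 tested fork and origin genes, 11 rose, 0 fell, 37 were positive and the median was 1.40. Mcm5, a subunit of the replicative helicase whose promoter is shown above, was at 167, 34.5 and 62.2 CPM in wt and 217, 373 and 318 CPM in 1Mek2 (log2 fold change 1.78 ± 0.43, adjusted p = 0.0249). Mcm10, which helps to fire origins, was at 16.8, 1.49 and 5.69 CPM against 37.1, 81.8 and 66.9 CPM. Among clamp loaders and polymerases, Rfc4 rose 3.75-fold and Pole2 3.84-fold, though the intervals of Rfc4 and Eif4a2 and those of Pole2 and Klhdc1 overlap. Of 22 genes of nucleotide supply 4 rose, among them Tyms (thymidylate synthase) 4.30-fold, Tk1 (thymidine kinase) 3.95-fold and Rrm1 (ribonucleotide reductase) 3.27-fold. The intervals of Tk1 and Afmid overlap, and the strand setting of the counting is not given in the sources used here. Of 22 genes of the step from G1 to S phase 3 rose, among them Mybl2, a transcription factor of the MuvB complex, from 5.33 ± 4.04 to 38.4 ± 12.9 CPM, and Cdkn2c, an inhibitor of CDK4 and CDK6, 4.28-fold. Chromatin genes that rose included H2az1 (2.96-fold), Hmgn2 (2.98-fold), Asf1b (a histone chaperone, 4.46-fold), Dek (2.61-fold) and the flap nuclease Fen1 (2.64-fold), whose interval overlaps Tmem258.

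These calls changed with single libraries more than their sizes did. Without 1Mek2 replicate 3, 1 mitosis gene and 0 replication genes passed, with medians of 1.95 and 1.35, and no kinetochore gene. Without wt replicate 1, 37 mitosis and 21 replication genes passed, with medians of 3.04 and 1.90, and 15 kinetochore genes. In exon reads 2 mitosis genes and 0 replication genes passed, with medians of 1.93 and 1.22.

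**Figure D2:**
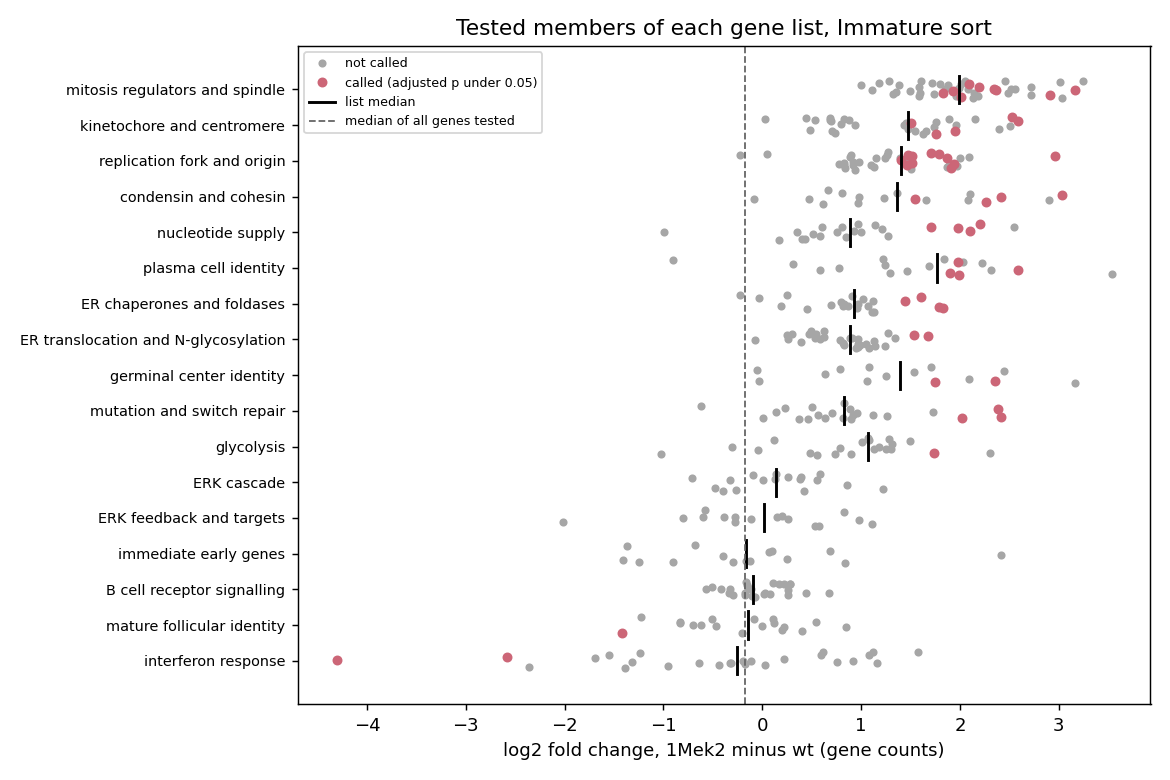
Log2 fold change (1Mek2 minus wt, gene counts) of every tested member of 17 gene lists, red where the adjusted p was under 0.05, with a black bar at the list median and a dashed line at the median of all genes (-0.17). Lists of mitosis, replication and plasma cell identity lie to the right of the dashed line, while the medians of the ERK lists lie between -0.16 and 0.14.

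Secretory genes are introduced by their promoters. The ER stress response element (ERSE) is the pair CCAAT and CCACG separated by 9 bases, a known target of XBP1 and ATF6. On either strand it stood in 0.13% of all promoters, in 7 of 19 promoters of ER chaperones (36.8%) and in 2 of 16 of the plasma cell identity list (12.5%). The called genes of those lists that hold the pair within 150 bases before to 50 after the start were Creld2 (chr15:88819496-88819695 (plus strand)) and Dnajc3 (chr14:118937782-118937981 (plus strand)), with the pair in capitals.
Creld2: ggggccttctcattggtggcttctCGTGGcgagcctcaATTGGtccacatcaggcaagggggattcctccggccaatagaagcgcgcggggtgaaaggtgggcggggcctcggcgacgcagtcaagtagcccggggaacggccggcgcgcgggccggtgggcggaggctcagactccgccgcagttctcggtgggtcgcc
Dnajc3: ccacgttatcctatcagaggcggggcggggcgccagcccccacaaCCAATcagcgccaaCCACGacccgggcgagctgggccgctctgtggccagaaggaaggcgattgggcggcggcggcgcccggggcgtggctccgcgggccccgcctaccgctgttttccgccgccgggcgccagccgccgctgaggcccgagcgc

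Plasma cell and ER genes had mostly positive fold changes. Of 18 tested plasma cell identity genes 4 rose, 17 were positive and the median was 1.77. Xbp1, the transcription factor that enlarges the ER in secreting cells (chromosome 11, 5470641 to 5475993), was at 418, 137 and 197 CPM in wt and 598, 1387 and 1002 CPM in 1Mek2. Its log2 fold change was 1.99 ± 0.39 (adjusted p = 0.0018), and it passed in exon reads as well. Creld2, an ER disulfide isomerase, was at 114, 48.0 and 69.8 CPM against 143, 419 and 355 CPM (adjusted p = 0.00203). Ell2, an elongation factor that favours secreted heavy chain, rose 3.72-fold, and Derl3, a part of ER-associated degradation, 6.03-fold. Prdm1, the regulator that commits B cells to the plasma cell fate, was at 7.45 ± 3.97 and 30.4 ± 13.3 CPM (adjusted p = 0.0935), and Sdc1, which encodes the excluded gate marker CD138, at 5.11 ± 1.06 and 25.4 ± 13.4 CPM (adjusted p = 0.0694). Neither of these 2 passed.

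Among ER chaperones and foldases 4 of 22 rose and 20 were positive, with a median of 0.93. The 4 were Sdf2l1 (3.56-fold), Manf (3.05-fold), Erp44 (2.72-fold) and Dnajc3 (3.45-fold). Erp44, which retains unfinished antibody in the secretory pathway, was at 259, 134 and 160 CPM in wt and 424, 599 and 481 CPM in 1Mek2. Of 31 genes of translocation and N-glycosylation 2 rose, among them the oligosaccharyltransferase subunit Stt3b (3.20-fold). In ER-associated degradation 1 of 18 rose (Sel1l, 2.85-fold) and in transport from ER to Golgi 1 of 28 (Lman1, a cargo receptor, 3.44-fold). ER chaperones had 0 calls without wt replicate 2, wt replicate 3 or 1Mek2 replicate 3, and 10 without wt replicate 1 (median 1.41) or without 1Mek2 replicate 2 (median 1.21). With the sum of long neuronal genes as a term, plasma cell identity had a median of 0.74 and ER chaperones one of 0.45, with 0 calls in each. Plasma cell identity had 0 calls without 1Mek2 replicate 3 (median 1.19) and 11 without 1Mek2 replicate 2 (median 2.10). Marker genes of plasma cells as a group summed to 1048, 279 and 279 CPM in wt and 1854, 8007 and 5320 CPM in 1Mek2, with Jchain the largest. In bulk libraries more cells of a type and more RNA per cell cannot be told apart.

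Among the genes that passed, Slpi had one of the lowest adjusted p values. Slpi encodes a secreted inhibitor of leukocyte proteases (chromosome 2, 164195990 to 164231086). It was at 77.1, 21.3 and 31.8 CPM in wt and 435, 1341 and 677 CPM in 1Mek2. The lowest 1Mek2 library was above the highest wt library, and the log2 fold change was 4.24 ± 0.49 (adjusted p = 7.05e-06). In exon reads it was 4.03 ± 0.45 (adjusted p = 0.0202). Across the sorts Slpi was also higher in plasma cells labelled 1Mek2 (3955 to 6941 CPM) than in wt ones (239 to 721 CPM), and it was at 5.56 to 8.72 CPM in wt follicular cells. The sign of Slpi held in 16 of 16 alternative fits, 13 of which called it. Those fits reuse the same libraries and are no independent support.

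Further genes that rose had varied roles. Cd83, a surface protein of activated B cells and the most abundant of the genes that rose without overlap between groups, was at 1348, 533 and 610 CPM in wt and 2456, 2459 and 2010 CPM in 1Mek2 (log2 fold change 1.48 ± 0.36, adjusted p = 0.0169). Cmpk1, a nucleotide kinase, rose 3.72-fold. The next genes were chosen after their values were seen. Pim1, a survival kinase induced by cytokines, was at 140, 87.4 and 119 CPM against 288, 447 and 426 CPM (adjusted p = 0.00362). Socs1 and Socs3, inhibitors of cytokine receptors, were at 3.05 to 11.7 and 0 to 2.10 CPM in wt and at 26.5 to 56.1 and 9.71 to 21.1 CPM in 1Mek2, and both passed. Nfil3, a basic leucine zipper transcription factor, went from 1.05 ± 0.264 to 22.4 ± 6.30 CPM (adjusted p = 0.000429). Eaf2, an elongation factor partner that is abundant in germinal center cells, was at 77.2, 46.3 and 44.2 CPM against 220, 432 and 435 CPM (adjusted p = 5.68e-06). Gatm, an enzyme of creatine synthesis, rose from 6.23 ± 2.46 to 69.5 ± 15.7 CPM. Socs1, Socs3 and Gatm each had all 3 of their 1Mek2 libraries above the wt libraries. Gm15387 (chromosome 15, 73965003 to 73966322), whose function is not known here, had the lowest adjusted p (3.11e-12), at 2.18 to 5.67 CPM in wt and 76.4 to 137 CPM in 1Mek2. Hmgb1-ps3, listed as a pseudogene copy of Hmgb1 whose reads can be shared with it, was at 0.14 to 0.33 CPM against 9.22 to 16.8 CPM (adjusted p = 0.000236).

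Germinal center genes had few calls and mostly positive fold changes. Of 14 tested germinal center identity genes 2 rose, 12 were positive and the median was 1.40. Fas, the death receptor that marks germinal center cells and is not part of the Immature gate, was at 68.1, 24.9 and 31.8 CPM in wt and 155, 165 and 100 CPM in 1Mek2 (adjusted p = 0.0112). Neil1, a base excision glycosylase, was at 95.8, 23.8 and 39.8 CPM against 219, 356 and 238 CPM (log2 fold change 2.35 ± 0.41, adjusted p = 0.000476). Bcl6, the master regulator of germinal centers, was at 105 ± 25.8 and 103 ± 30.4 CPM. Of 22 mutation and switch repair genes 3 rose, including the nuclease Exo1 (5.22-fold). Markers of germinal center B cells summed to 731, 114 and 215 CPM in wt and 1065, 1804 and 1740 CPM in 1Mek2. Without 1Mek2 replicate 3 neither list had a call, and without wt replicate 1 they had 9 and 5.

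Immunoglobulin heavy and light chain genes other than Igha are at 0 in the deposited counts of every library, so the family was read from exon reads. IgM heavy chain (Ighm, chromosome 12, 113382446 to 113386350) was at 5410, 5423 and 5155 exon CPM in wt and 3949, 7121 and 4837 in 1Mek2, a log2 fold change of -0.01 ± 0.18. IgD heavy chain (Ighd) was at 1370, 1280 and 1187 exon CPM against 927, 672 and 560 (adjusted p = 0.0853). Ighg1, the IgG1 heavy chain, was at 420, 18.9 and 33.6 exon CPM against 3008, 6121 and 5170, without passing (adjusted p = 0.269). Ighm overlapped between groups, while every 1Mek2 library had more Ighg1 than any wt library. For Ighg3 the exon CPM were 19.2, 34.3 and 9.05 against 344, 1578 and 765 (adjusted p = 0.0699). For Ighe, the IgE heavy chain, they were 4.89, 5.62 and 0 against 248, 200 and 273 (adjusted p = 0.112). Jchain, which joins antibody units, was at 963, 282 and 229 against 2249, 6312 and 5253 (adjusted p = 0.163). Igha overlapped between groups in exon reads (6.93 to 139 against 15.7 to 115 exon CPM), while in gene counts it was at 4.25 to 6.24 CPM in wt and 1.28 to 4.21 CPM in 1Mek2 (adjusted p = 0.739). By edgeR 0 of the 14 constant genes passed; at an unadjusted p under 0.05 there were 9. How the authors' counting treated reads shared by the near-identical IgG genes is not given in the sources used here, so the split between IgG subclasses is uncertain.

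The share of switched classes put the same reads on 1 scale. IgG, IgA and IgE together made 13.2, 2.68 and 1.40% of heavy chain constant reads in wt and 47.3, 59.9 and 62.8% in 1Mek2. The groups did not overlap, and the exact permutation test (two-sided) gave p = 0.1, the smallest that 3 against 3 libraries allow (adjusted p = 0.35). Immunoglobulin genes of any kind held 2.18 ± 0.13% of the exon reads of wt libraries and 4.09 ± 1.34% of those of 1Mek2 libraries (SD, n = 3 and 3).

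**Figure D3:**
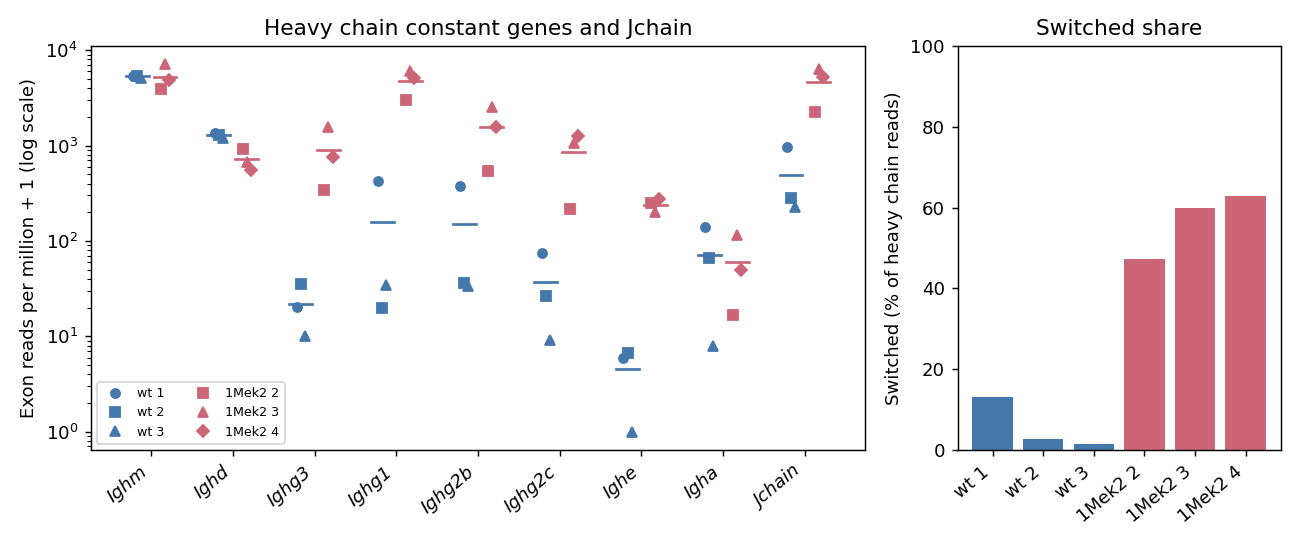
Left, exon CPM plus 1 (log axis) of heavy chain constant genes and Jchain in each Immature library, with lines at group means. Right, switched classes as a percentage of heavy chain constant reads per library. The 1Mek2 bars run from 47.3 to 62.8% and the wt bars from 1.40 to 13.2%, while Ighm lies at a like level in both groups.

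Variable segments, which differ by the clones sampled, gave 12 of the 50 calls in exon reads. Of 112 tested heavy chain segments 5 rose and 103 were positive (median 1.97, against -0.05 over all genes in exon reads). Of 114 kappa segments 5 rose, 2 fell and 82 were positive (median 0.88). Igkv12-46 was at 205, 202 and 161 exon CPM in wt and 562, 556 and 564 in 1Mek2 (adjusted p = 0.0124). Igkv6-14 went the other way, at 104, 90.4 and 185 exon CPM against 13.6, 22.2 and 22.6 (adjusted p = 0.023). Ighv1-82 was at 2.08, 4.48 and 4.31 against 59.2, 158 and 97.3 exon CPM (adjusted p = 0.0124). These 3 segments were chosen after their values were seen, and their reads can be shared with like segments.

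Of the 26 genes that were lower, 23 were tested in exon reads, where 23 were negative and 4 passed. Ccr7, the receptor that guides lymphocytes to T cell zones (chromosome 11, 99035025 to 99045903), was at 357, 188 and 187 CPM in wt and 69.0, 140 and 64.4 CPM in 1Mek2. Its log2 fold change was -1.42 ± 0.39 (adjusted p = 0.0431) and -1.80 in exon reads, where it passed. Il10ra, a chain of the IL-10 receptor, was at 111, 57.9 and 94.0 CPM against 28.6, 39.7 and 11.7 CPM (adjusted p = 0.0311). In both genes the groups stood apart.

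Other genes that fell included membrane transporters and a matrix gene. Slc15a2, a peptide transporter, fell by 2.72 on the log2 scale, Slc16a7, a monocarboxylate transporter, by 1.74, Cpne4 by 1.97 and the collagen gene Col6a4 by 2.29. Ccdc9 was at 20.6, 14.1 and 52.4 CPM in wt and 7.48, 1.41 and 4.10 CPM in 1Mek2 (adjusted p = 0.0179), again without overlap. Cyp4f18, a cytochrome P450 that breaks down leukotriene B4, fell by 1.53, from 246 ± 143 to 85.0 ± 29.6 CPM; its interval overlaps that of Gm51535, which also fell. Gm6934 fell by 1.63 in gene counts and had -0.05 in exon reads (adjusted p = 0.992); its interval overlaps the end of Satb1.

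Mature follicular identity was low mainly in exon reads. Of 18 tested members 1 fell in gene counts (Ccr7; median -0.14), and 3 of 19 fell in exon reads (median -0.39). Satb1, a chromatin organizer, was at 142, 188 and 185 exon CPM in wt and 67.7, 64.1 and 79.4 in 1Mek2 (adjusted p = 0.045). Cd55, which protects cells from complement, was at 311, 487 and 371 exon CPM against 126, 127 and 99.4 (log2 fold change -1.73 ± 0.22, adjusted p = 0.0202). In gene counts these 2 had adjusted p of 0.436 and 0.0883. Outside the list, exon reads of Fcmr, the IgM Fc receptor (732 ± 110 to 359 ± 43.1), Lbh (1167 ± 35.2 to 655 ± 41.7) and Sorl1 (893 ± 61.5 to 479 ± 20.5) fell as well.

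The interferon response list had few calls, all lower. Of 26 tested members 2 fell, 0 rose, 10 were positive and the median was -0.26. Over all genes 42.9% were positive and the median was -0.17. Outside the list, the interferon-inducible GTPase genes Iigp1 and Tgtp2 were called higher, with log2 fold changes of 4.43 and 1.86. The calls of the list thus do not describe every interferon-induced gene. Mx2, an antiviral GTPase, was at 11.6, 32.1 and 19.97 CPM in wt and 1.69, 0.39 and 1.11 CPM in 1Mek2 (log2 fold change -4.31 ± 0.83, adjusted p = 0.000862). Oasl1, a regulator of Irf7 translation, was at 35.1, 49.4 and 42.4 CPM against 5.63, 11.2 and 4.38 CPM (adjusted p = 0.00571). Without wt replicate 3 the lower calls numbered 1 and without 1Mek2 replicate 4 they numbered 3.

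Genes of the ERK cascade and its targets held no call in the main fit. Among 17 cascade genes 11 were positive (median 0.14), among 16 feedback and target genes 8 (median 0.02), and among 15 immediate early genes 6 (median -0.16), with 0 called by edgeR in each. At an unadjusted p under 0.05 these lists held 1, 0 and 3 genes, DESeq2 called 0 and limma voom 1 immediate early gene. Leaving out wt replicate 1 or 1Mek2 replicate 2 gave 1 cascade gene called lower in each case. In exon reads the medians were -0.04, -0.09 and -0.64. Dusp6, the phosphatase induced by ERK that acts back on it, was at 122, 42.0 and 103 CPM in wt against 33.8, 78.9 and 62.7 CPM (adjusted p = 0.709). In exon reads Dusp6 was lower without overlap, at 130, 70.6 and 136 against 44.3, 64.6 and 66.4 exon CPM, and did not pass (adjusted p = 0.21). Ier2, an immediate early gene, was at 259, 113 and 138 CPM in wt and 94.6, 109 and 70.1 CPM in 1Mek2 (adjusted p = 0.413), without overlap. Its exon reads were also apart (log2 fold change -1.18 ± 0.26, adjusted p = 0.0846). Egr1, an early ERK target, was at 77.3, 29.8 and 21.5 CPM against 19.5, 18.4 and 16.3 CPM; its groups did not overlap but it did not pass (adjusted p = 0.385). Myc was at 116 ± 47.5 and 167 ± 34.3 CPM (adjusted p = 0.711) and was called in 1 of 16 alternative fits. A p above the threshold in 3 against 3 libraries does not show that these levels were equal. B cell receptor signalling genes (26 tested, median -0.09) and BAFF, CD40 and NF-kB genes (18 tested, median 0.06) also had 0 edgeR calls, with 0 and 2 genes at an unadjusted p under 0.05 and 1 DESeq2 call in the second list. In exon reads 21 of the 26 receptor signalling genes were negative (median -0.25), 9 were lower without overlap, 7 had an unadjusted p under 0.05 and 0 passed. Over all 14631 genes tested in exon reads 46.96% were positive, 9.65% were lower without overlap and 1894 had an unadjusted p under 0.05. The second list had a median of -0.17 in exon reads.

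Growth and metabolism lists had positive medians with few calls. Nuclear oxidative phosphorylation had 84 of 86 tested genes positive (median 0.68) and cytosolic ribosomal proteins 81 of 82 (median 0.50), each with 0 called by edgeR, DESeq2 or limma voom and with 19 and 6 genes at an unadjusted p under 0.05. In exon reads these medians were 0.36 and 0.16, and with the neuronal term 0.40 and 0.33. Glycolysis had 18 of 21 positive (median 1.07) and 1 call, Tpi1 (triose phosphate isomerase), 3.33-fold higher and called in exon reads too. Cholesterol synthesis had 19 of 21 positive (median 1.05) and 1 call, Fdps. The proteasome had 44 of 46 positive (median 0.66) and 1 call, the assembly factor Psmg1. With the neuronal term the glycolysis median was 0.52 and the proteasome median 0.36, with 0 calls in each.

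Markers of other cells were summed in each library. Genes of follicular dendritic and marginal reticular cells, the stroma of the follicle, summed to 42.5, 39.2 and 37.3 CPM in wt and 34.8, 919 and 600 CPM in 1Mek2, so that 1Mek2 replicates 3 and 4 stood apart and replicate 2 did not. Clu and Mfge8 led the sum, Ccl19 and Ccl21a were at 0 in the counts, and 2 of 11 tested members were called (Madcam1 and Serping1). Ubd, Madcam1 and Csn2, which had the largest fold changes among genes called higher without overlap and with a mean of at least 5 CPM, had at most 0.25 CPM in wt, at most 0.97 CPM in 1Mek2 replicate 2 and 14.9 to 53.4 CPM in 1Mek2 replicates 3 and 4. Neutrophil genes were at 71.5 CPM in 1Mek2 replicate 2 and 1.19 to 6.15 CPM elsewhere. T cell genes summed to 584 to 849 CPM in wt and 605 to 903 CPM in 1Mek2, with Trac, Trbc1 and Trbc2 at 0 in the counts. A 0 in the counts does not show absence, since 1849 genes at 0 in all counts averaged 10 or more exon reads. Of 18 T cell genes 15 were tested in gene counts and 17 in exon reads, and of 10 plasmacytoid genes 8 and 10. Thy1, a T cell surface protein, rose from 0 to 0.83 CPM in wt to 5.87 to 15.3 CPM in 1Mek2. Monocyte and macrophage genes summed to 233 to 715 CPM and 281 to 757 CPM, plasmacytoid dendritic genes to 1453 to 2040 and 1134 to 1871 CPM, conventional dendritic genes to 58.1 to 68.4 and 86.7 to 111 CPM, and stromal and endothelial genes to 331 to 436 and 203 to 297 CPM. Erythroid genes summed to 158 to 253 CPM in wt and 86.5 to 180 CPM in 1Mek2. Over all 6 libraries natural killer genes summed to 19.4 to 52.1 CPM, platelet genes to 14.3 to 42.3 CPM and basophil and mast cell genes to 2.16 to 17.5 CPM. In gene counts the plasma cell, germinal center B cell, conventional dendritic and stromal sums did not overlap between groups (p = 0.1 each, adjusted p = 0.35, exact permutation test). For 3 against 3 libraries no lower p is possible. In exon reads the sums of T cells (780 to 842 against 648 to 750 CPM), plasmacytoid dendritic cells (2192 to 2644 against 1494 to 1960 CPM) and erythroid cells (196 to 290 against 103 to 149.1 CPM) were lower in 1Mek2 without overlap (p = 0.1 each, exact permutation test). Most of the T cell sum was Cd2 (mean 678 exon CPM in wt and 494 in 1Mek2). Most of the plasmacytoid sum was Ly6d (2244 and 1408). By gene, 11 of 17 tested T cell and 7 of 10 plasmacytoid members had a positive fold change in exon reads (medians 0.36 and 0.43). The lower sums of these 2 lists thus do not describe most of their members. Stromal genes were lower without overlap in exon reads too (229 to 313 against 114 to 173 CPM). Plasma cell (329 to 1116 against 2445 to 6669 CPM) and germinal center B cell sums (118 to 730 against 1332 to 1781 CPM) were higher without overlap, while conventional dendritic genes overlapped. Of 14 neutrophil genes only 1 was tested in exon reads, at 0 to 0.06 CPM in wt and 1.382 to 2.75 CPM in 1Mek2. That gene cannot stand for the list. The part of these cells in the genes above was not tested.

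**Figure D4:**
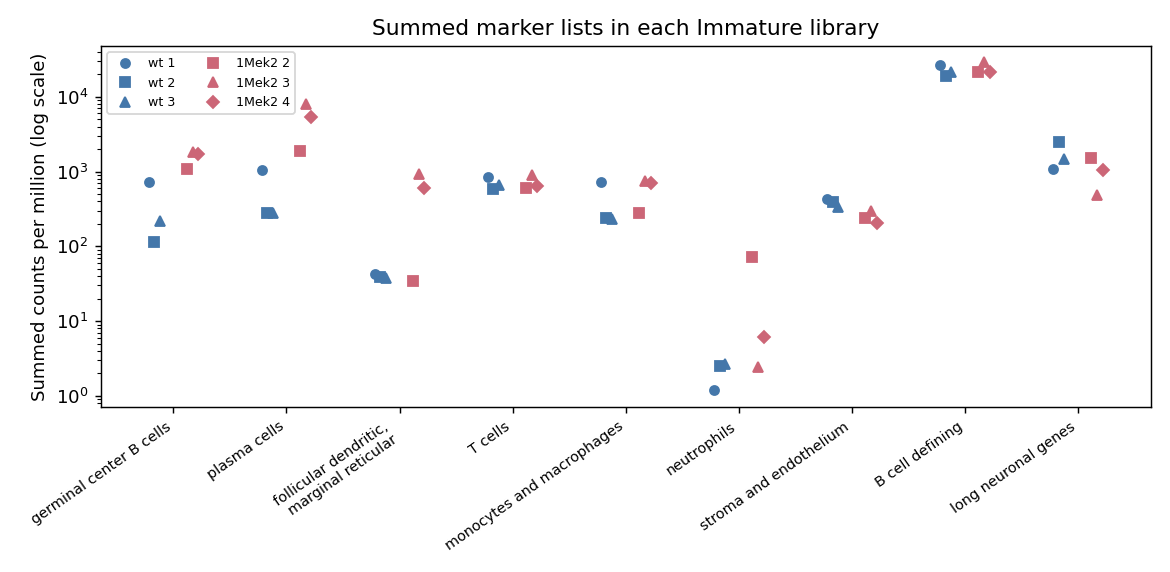
Summed CPM (log axis) of 9 marker lists in each Immature library. Follicular dendritic and marginal reticular markers reach 919 and 600 CPM in 1Mek2 replicates 3 and 4 and lie at 34.8 to 42.5 CPM in the other libraries, and plasma cell markers are higher in each 1Mek2 library than in any wt library.

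Germinal center (GC) libraries of the same 6 animals allowed the genotype effect to be set beside that of another sort (gate B220+CD93-CD138-GL7+FAS+). In a fit over the 12 libraries, 68 of 23144 genes passed in GC cells (0.294%). The difference of the effects, Immature minus GC, passed for 0 genes (0%; 1041 at an unadjusted p under 0.05, edgeR). With the animal as a block 28 of 24974 genes passed (0.112%). For the 171 genes that rose in the Immature sort the median in GC cells was 0.89, with 147 positive and 9 called. Over all 23144 genes in GC the median was -0.53, with 8089 positive. For the 26 genes that fell in the Immature sort the GC median was -0.91, with 8 positive and 2 called. The positive share of these 26 was near that over all genes.

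Among the 28 genes were several of division and secretion. Cenpf had an effect of 2.60 ± 0.39 in Immature and -0.01 ± 0.37 in GC cells, where it was at 213 ± 37.2 CPM in wt and 211 ± 39.2 CPM in 1Mek2. The difference was 2.61 ± 0.53 (adjusted p = 0.106), and 2.73 ± 0.56 with the animal block (adjusted p = 0.00452). For Slpi the effect was 4.24 ± 0.49 in Immature and 1.45 ± 0.43 in GC cells, and the difference was 2.79 ± 0.61 (adjusted p = 0.175) or 2.73 ± 0.57 with the block (adjusted p = 0.00452). Mki67, a marker of dividing cells, Ccna2 (cyclin A2) and Jchain also differed with the block, by 2.56, 3.18 and 2.95. So did Mfge8 (4.07), Coch (7.83) and Apoe (3.08); Mfge8 and Coch belong to the follicular dendritic list.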

How the data were processed

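Messenger RNA of sorted mouse spleen B cells was read in 41 libraries, of which 6 Immature libraries (3 wt, 3 1Mek2) were compared. The submitters' processing notes list featureCounts 2.0.3, STAR 2.7.11a and Trim Galore 0.6.5, with build GRCm39. The deposited counts are raw reads per gene; for 50760 of 50763 genes the length per the file headers equals the whole span, so intron reads are counted. The authors' TPM table uses exon lengths. TPM times length gave whole multiples of 1 constant in each library (99.9952 to 100% of values within 0.02), and these exon reads served as a second measure. TPM rows naming no gene (6 rows, 0.0303 to 0.0700% of exon reads) were left out. All deposited counts are 0 for 1849 genes that average 10 or more exon reads, among them immunoglobulin heavy and light chain genes, though not Igha.

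Tests used edgeR 4.0.16 in R 4.3.3 (filterByExpr, TMM scaling, robust quasi-likelihood fit, Benjamini-Hochberg adjusted p under 0.05). CPM are TMM-scaled within the 6 libraries unless stated; errors of log2 fold changes are SE and others SD. DESeq2 1.42.0 and limma 3.58.1 were alternatives, as were other scalings, filters, exon reads, leaving out each library and log2 (TPM plus 1 or 0.1). Sums were compared by exact permutation tests over libraries. Both edgeR fits were tested on simulated data, where the fit of the difference between Immature and GC cells found fewer of the known changes than the Immature fit. Members and gene lists were chosen with earlier results of these data known.

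Genes were named by rule: the targeted genes; of called genes without overlap and a mean of at least 10 CPM, the 14 higher and 10 lower ones of highest mean; the 6 largest changes each way at 5 CPM or more; up to 4 called members per list, or the 2 most abundant where none was called; ERK and immediate early list members at 20 CPM or more; immunoglobulin constant genes in exon reads; and the 2 most abundant members per list of other cells. Promoters come from the RefSeq table of GRCm38.p6, the first window per symbol. Precision is that of 3 animals a group and covers the spread between them. Some genes that this rule names are not reported here.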

Additional observations from a re-analysis of the deposited data

Results flagged for a closer look

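Of the genes described with their gene counts in each library, Cenpf and Slpi were singled out because their genotype effect differed between the Immature and GC sorts of the same 6 animals, by a test of the difference itself with the animal as a block. Jchain, described above by its exon reads, also differed by that test (2.95 ± 0.59, adjusted p = 0.00295, edgeR). The difference (Immature minus GC, log2) was 2.73 ± 0.56 for Cenpf and 2.73 ± 0.57 for Slpi (SE, adjusted p = 0.00452 for both, edgeR over 24974 genes). Without the block the adjusted p were 0.106 and 0.175. Cenpf was higher in 3 of 3 Immature 1Mek2 libraries than in any wt one and overlapped in GC cells. Slpi was higher without overlap in both sorts, with 78.6 to 225 CPM in GC wt and 342 to 397 CPM in GC 1Mek2. The cause of the difference was not tested.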

How the results depend on the processing

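Over the 6 Immature libraries the number of called genes (197) ran from 32 to 738 when 1 library was left out. It was 297 with RLE scaling, 344 with no filter on low counts, 50 in exon reads, 5 with the conflicting library added as 1Mek2, 0 with a term for long neuronal genes and 0 with all 12 groups in 1 edgeR fit (1501 and 696 at an unadjusted p under 0.05). Limma on log2 TPM called 59 genes (plus 1), 40 (plus 0.1) and 71 (plus 1, no filter). In exon reads the 50 calls became 426 with no filter and 3 to 283 with 1 library left out. The difference between Immature and GC cells passed for 0 genes, for 28 with the animal as a block and for 2 in exon reads. Replicate numbers 2 and 3 occur in both groups but belong to different animals. A replicate block gave 1716 calls, and same-numbered libraries had correlations of 0.41 and 0.17 in their deviations, which does not pair them.

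Some signs changed. Ighm was 0.16 with no filter and -0.20 to 0.21 with 1 library left out, and Igha -1.02 to 0.83. The mature follicular median was 0.13 with the replicate block. The ERK cascade median was -0.043 in exon reads, -0.20 with the neuronal term and -0.025 to 0.37 with 1 library left out. The ERK feedback median was -0.092, -0.079 and -0.070 to 0.26 in the same settings, and -0.042 with all 12 groups. Differences of summed markers (1Mek2 minus wt, CPM) turned in exon reads for T cells (-114), basophils and mast cells (-1.18, with 1 gene tested) and B cell genes (-3470). With 1 library left out they ran from -75.1 to 92.0 for T cells, -3.10 to 13.2 for natural killer cells, -403 to 31.4 for plasmacytoid dendritic cells, -3.77 to 3.88 for basophils and mast cells and -630 to 3900 for B cell genes. The cause of these changes was not tested.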

Other observations

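The Immature library left out for its conflicting labels (animal 565) was set beside the 6 others after TMM scaling over the 7. It had 97.6 CPM of Slpi, above the wt libraries (19.6 to 83.2) and below the 1Mek2 ones (431 to 1343). Cdk1 was at 11.9 CPM in it, within wt (9.05 to 41.7), and Xbp1 at 259 CPM, also within wt (126 to 451). Switched classes made 5.65% of its heavy chain constant reads, within the wt range. Ighe was at 15.2 exon CPM, between wt (0 to 5.48) and 1Mek2 (211 to 310). Mx2 was at 1.91 CPM and Oasl1 at 25.4 CPM, both below every wt library and above every 1Mek2 library (at most 1.67 and 11.3 CPM). Slc15a2 (4.61 CPM) and Cd55 (278 exon CPM) were below every wt library as well. Gm15387 was at 49.0 CPM, between the groups. Which group this library belongs to cannot be told from its labels.

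Of the 171 genes that rose, 59 were members of a program list and 112 of none, and of the 26 that fell 3 were members. The intervals of 18 genes that rose and 8 that fell overlap another gene with at least 0.1 times their own mean CPM, so that reads of the pair could be shared. Median gene span was 14943 bases for the genes that rose and 14011 for those that fell, against 25118 for all genes tested.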
